A study of Mus musculus with 35 samples.

Results

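Control skin taken 3 weeks after radiation of the flank was compared with sham skin across all genes. The members are the 4 libraries labelled control at week 3 and the 3 sham libraries, 7 of the 35 in the series, and they were chosen by label, not by a measured value. All mice were female C57BL/6J, an inbred laboratory strain. Mice of the week 3 group were 10 weeks old when the left flank received 25 Gy, delivered at 3.6 Gy per min over 420 s, and their treated skin was shaved afterwards. The control biopsies therefore come from radiated animals. The labels give neither the body site of the control skin nor the day on which sham skin was taken, and sham mice had no radiation. The age of 10 weeks at radiation is stated for the study as a whole, so the age of sham mice at biopsy is not known. Each week also has 4 radiated libraries, numbered like the controls, and 35 libraries from 19 mice were taken to mean that same-numbered control and radiated skin came from 1 mouse. Control and sham libraries come from different animals, each counted as 1 replicate. The labels do not say whether sham skin was shaved.

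As background, skin holds epidermis, dermis, fat, a thin muscle sheet and hair follicles that pass through cycles of growth (anagen), regression (catagen) and rest (telogen). Hair keratins and the proteins that crosslink them are made by follicles in growth, together with dividing matrix cells. Immediate early genes encode transcription factors and signalling brakes that are induced within minutes of growth factors, wounding or stress. In a bulk sample, fewer cells of a type and less RNA per cell cannot be told apart.

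Library totals ran from 17362853 to 23069300 estimated counts in sham skin and from 19509652 to 27688471 in week 3 control skin. A count of 3, taken as the floor, was worth between 0.123 and 0.171 CPM (counts per 1e6 counts on libraries scaled by trimmed mean of M values). Reads from the 13 mitochondrially encoded genes made up 1.66% to 2.75% of sham libraries and 2.24% to 4.14% of week 3 control libraries. Epidermal keratinocyte markers were abundant in all 7 libraries, with Krt5, a basal keratin, between 2596 and 6710 CPM, so the tissue label held. Sham replicate 1 stood apart from the other sham libraries, and week 3 control replicate 4 from the other controls, in hair keratin level, and counts of hair genes called are given with and without both.

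Of 17907 genes tested with edgeR's quasi-likelihood test, 2036 had a Benjamini-Hochberg adjusted p under 0.05 and were called, which is 11.4%. Of these, 927 were higher in week 3 control skin (5.18%) and 1109 were lower (6.19%), and 5311 genes (29.7%) had an unadjusted p under 0.05. The median log2 fold change of all tested genes was -0.04. Fosl1, Ccr1, Ptx3 and Nr4a3 were among the largest increases, and keratin and keratin-associated protein genes among the largest decreases. In 4707 genes (26.3%) the groups did not overlap, with all week 3 libraries above all sham libraries in 2283 (12.7%) and below them in 2424 (13.5%). Scaling by total count, which shifted the median by -0.17, gave 571 higher and 1951 lower calls. Any single library other than sham replicate 1 moved the count by over 1.5 times when left out: 704 genes were called without sham replicate 2, 629 without sham replicate 3, and 943, 792, 739 and 1348 without week 3 control replicates 1, 2, 3 and 4.

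**Figure D1:**
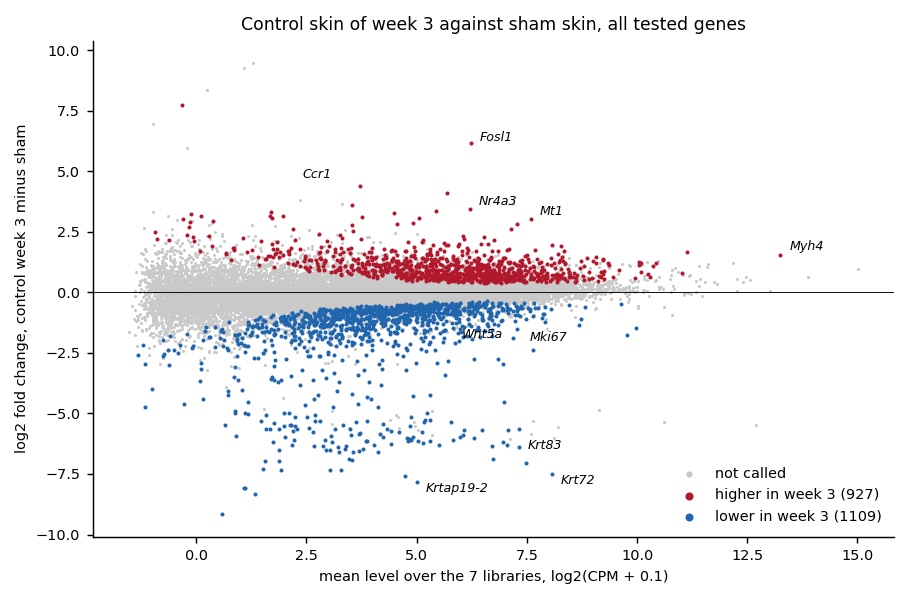
Each point is a tested gene, with its mean level over the 7 libraries on the horizontal axis (log2 of CPM + 0.1) and its log2 fold change, control week 3 minus sham, on the vertical axis. Red and blue points are the 927 higher and 1109 lower genes, and the blue points below -5 are mostly hair genes.

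Of 24 immediate early genes, all tested, 13 rose, none fell, and the median log2 fold change was 1.16 against -0.04 over all genes. Fosl1, which encodes the AP-1 subunit FRA-1 found at wound edges, had the largest increase of the genes that pass the naming rule. Its level was 111, 139, 124 and 147 CPM in week 3 control replicates 1 to 4, against 1.94, 2.47 and 0.981 CPM in sham replicates 1 to 3. The groups lay far apart, and the log2 fold change was 6.15 (SE 0.30, edgeR adjusted p = 0.000147, 72.3-fold in mean CPM). This gene lies on chromosome 19 from 5447547 to 5455946 (GRCm38). Nr4a3, an orphan nuclear receptor on chromosome 4 (48045153 to 48086447), had 167, 82.2, 107 and 127 CPM in week 3 control skin and 16.0, 10.3 and 6.51 CPM in sham skin. All 4 were above all 3, as the naming rule required, with a log2 fold change of 3.45 (SE 0.35, edgeR adjusted p = 0.00314). Both other members of its family rose as well: Nr4a1 had 84.6 to 114 CPM against 9.81 to 30.1 (log2 fold change 2.34), and Nr4a2 had 12.6 to 16.2 CPM against 2.43 to 4.37 (2.23).

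The members that rose include feedback inhibitors as well as transcription factors. Socs3, which damps cytokine signalling, was at 143 to 304 CPM against 25.1 to 51.2, a log2 fold change of 2.61 (edgeR adjusted p = 0.00577). Myc, the growth regulator, was at 164 to 235 CPM against 47.3 to 68.3, a log2 fold change of 1.79 (edgeR adjusted p = 0.0031). Atf3, a stress transcription factor, rose by 2.05 on the log2 scale, and Ier3, Klf2, Jund, Klf4, Zfp36 and Klf6 rose by between 0.69 and 1.69. Fos was at 234, 63.4, 140 and 80.8 CPM in week 3 control skin and at 180, 197 and 23.7 CPM in sham skin (log2 fold change -0.06, edgeR adjusted p = 0.964), and sham replicate 3 was the lowest of all 7 libraries. Jun and Egr1, with log2 fold changes of -0.08 and 0.33, were not called either. With total-count scaling 11 were called, and with any single library left out 9 to 11 were.

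**Figure D2:**
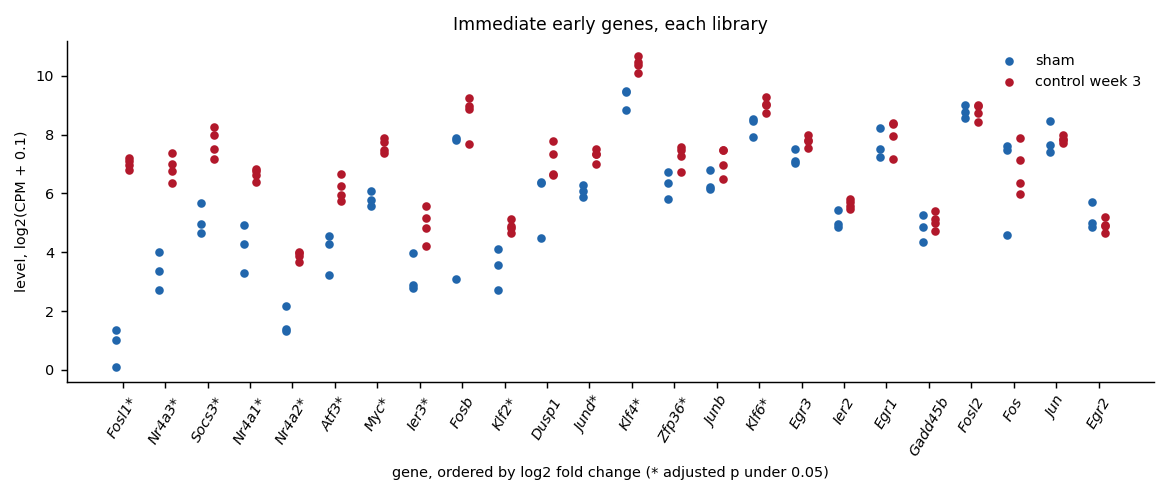
Level of the 24 immediate early genes in each of the 3 sham (blue) and 4 week 3 control (red) libraries, on a log2(CPM + 0.1) axis and ordered by log2 fold change. Asterisks mark the 13 genes called, and Fosl1, at the left, shows the widest gap between the groups.

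The Nr4a genes moved together, so upstream sequence of those with an entry entirely outside annotated exons is shown, 250 bases before the RefSeq start (GRCm38.p6), 5' to 3' on the gene's strand. Capitals mark TGACG or its reverse complement CGTCA, the core of the cyclic AMP response element, searched on both strands. Nr4a1 is chr15:101266596-101266845 on the plus strand and Nr4a2 is chr2:57124004-57124253 on the minus strand.
Nr4a1: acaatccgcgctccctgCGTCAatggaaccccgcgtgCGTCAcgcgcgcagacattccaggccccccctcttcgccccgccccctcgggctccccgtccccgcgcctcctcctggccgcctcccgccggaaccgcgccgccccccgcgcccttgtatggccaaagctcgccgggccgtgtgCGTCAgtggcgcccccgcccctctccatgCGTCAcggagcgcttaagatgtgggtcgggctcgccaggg
Nr4a2: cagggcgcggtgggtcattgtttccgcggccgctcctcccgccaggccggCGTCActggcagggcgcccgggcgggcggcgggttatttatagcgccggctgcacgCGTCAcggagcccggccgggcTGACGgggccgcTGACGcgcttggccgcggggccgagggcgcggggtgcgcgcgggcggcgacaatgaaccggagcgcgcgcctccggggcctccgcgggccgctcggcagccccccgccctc
Each holds 4 matches, as does the same window of Nr4a3. Of 32851 promoters of this length, 17.8% hold at least 1 match and 0.137% hold 4 or more. Of the immediate early genes, 19 had a promoter entry, and 10 of these held a match. The motif and these promoters were chosen with the expression values known, and a match is a description of letters only.

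Ptx3, a secreted pattern recognition protein, had 28.9, 9.34, 11.8 and 25.9 CPM in week 3 control skin and 1.77, 1.56 and 1.29 CPM in sham skin. It rose by 3.60 (SE 0.46, edgeR adjusted p = 0.00592), and replicates 1 and 4 were the highest. Ptgs2, the inducible cyclooxygenase, had 45.5, 31.6, 43.3 and 25.6 CPM against 5.26, 2.69 and 3.31 CPM, a log2 fold change of 3.27 (edgeR adjusted p = 0.00298). Bcl3, a regulator of NF-kappaB dimers, had 50.1, 50.2, 37.7 and 53.6 CPM against 9.41, 5.72 and 4.24 CPM (2.88, edgeR adjusted p = 0.0031). In Ptx3, Ptgs2 and Bcl3 every control library was above every sham library, which the naming rule required.

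Epgn, a ligand of the epidermal growth factor receptor, had 25.2, 31.7, 16.6 and 13.0 CPM against 3.40, 2.60 and 1.5 CPM and rose by 3.09 (edgeR adjusted p = 0.00599). Tnfaip6, which binds hyaluronan, had 62.0, 13.8, 33.9 and 37.9 CPM against 4.06, 8.45 and 3.10 CPM (2.81, edgeR adjusted p = 0.0176). That call did not hold without sham replicate 3 (2.55, edgeR adjusted p = 0.063). Ifi202b, of a family of DNA-sensing proteins on chromosome 1, had 80.4, 74.7, 55.3 and 73.9 CPM against 9.10, 5.98 and 5.53 CPM, and rose by 3.36 (edgeR adjusted p = 0.000466). Members of that family share sequence, so its counts are less certain. Ccr1, a chemokine receptor of myeloid cells, had 4.01, 8.15, 7.90 and 68.0 CPM against 1.19, 0.607 and 1.29 CPM. Replicate 4 was the highest by far. The log2 fold change was 4.40 (SE 1.09, edgeR adjusted p = 0.0373). It was 2.69 without that library, and was not called without sham replicates 1, 2 or 3 (edgeR adjusted p of 0.0657, 0.113 and 0.111) or week 3 control replicates 2 or 3 (0.0566 and 0.0548).

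**Figure D3:**
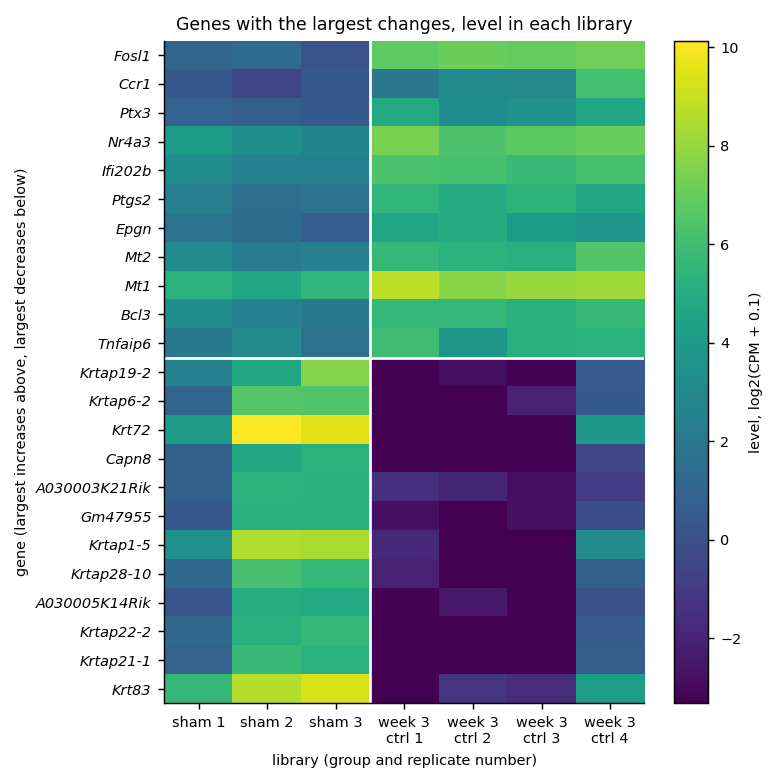
Levels, as log2(CPM + 0.1), of genes with the largest increases (above the white line) and the 12 with the largest decrease (below it) in each library. In the increases every week 3 control library is above every sham library, which the naming rule required, and in the decreases sham 1 and week 3 control 4 are intermediate.

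Of 11 genes induced by glucocorticoids or metals 6 rose and none fell (median log2 fold change 1.08). The metallothioneins, small proteins that bind zinc, led them. Mt1 had 451, 211, 271 and 301 CPM in week 3 control skin and 39.5, 26.8 and 45.9 CPM in sham skin, a log2 fold change of 3.03 (SE 0.30, edgeR adjusted p = 0.0031). Mt2 had 50.01, 38.2, 34.7 and 88.3 CPM against 8.83, 4.47 and 5.63 CPM (3.05, edgeR adjusted p = 0.00599). These neighbours on chromosome 8 were each above all sham libraries in all 4 controls, as the naming rule required. Reads of so similar a pair may be split between them. Pdk4, Zbtb16, Klf9 and Fkbp5, which are targets of the glucocorticoid receptor, rose by between 1.03 and 1.46. Pdk4 (edgeR adjusted p = 0.0479) lost its call under 13 of 16 alternative settings, with adjusted p up to 0.147, among them leaving out any one of the 7 libraries. Counts of called members fell to 2 to 6 when a single library was left out: 3 without sham replicate 2, 2 without sham replicate 3, and 2, 4, 3 and 3 without week 3 control replicates 1 to 4. Of 12 heat shock genes 4 rose, Hsp90aa1 (0.94), Bag3 (0.87), Hspa1a (0.72) and Hspa8 (0.60), and with total-count scaling 2 did. Without week 3 control replicates 1, 2 or 3, or sham replicate 3, 2 were called.

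Among 19 circadian clock genes 6 rose and none fell, and the median log2 fold change was 0.29. The time of day of the biopsies is not in the labels. Per2, a repressor of the clock, was at 25.5, 14.4, 26.0 and 13.4 CPM in week 3 control skin and at 3.89, 3.77 and 5.22 CPM in sham skin. It rose by 2.19 (SE 0.31, edgeR adjusted p = 0.00761). Cry1, its partner, rose by 1.44, Bhlhe40 by 1.18, Cry2 by 0.92, Nr1d1 by 0.85 and Rora by 0.83. Output genes of the clock such as Dbp (log2 fold change 0.21) and Tef (-0.07) were not called. Leaving out a single library gave 3 to 7 calls: 3 without sham replicate 2, 4 without sham replicate 3, and 4, 4, 3 and 4 without week 3 control replicates 1 to 4.

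Hair fibre genes were much lower in week 3 control skin. Of 12 hair shaft keratins tested (13 listed, Krt85 not analysed here), 9 fell and none rose, with a median log2 fold change of -5.86. Summed over these keratins, the level was 7.83, 9.54, 7.44 and 146 CPM in week 3 control replicates 1 to 4, against 280, 2730 and 3620 CPM in sham replicates 1 to 3. Sham 1 and control 4 lay between the extremes, but no control reached a sham level. Krt83, a keratin of the hair cortex on chromosome 15 (101485130 to 101491512), had 0, 0.328, 0.232 and 18.0 CPM against 50.6, 401 and 644 CPM. It fell by 6.37 on the log2 scale (SE 1.62, edgeR adjusted p = 0.0399). Krt31, Krt33a, Krt33b, Krt34, Krt35 and Krt82 fell by between 5.35 and 6.29, and Krt84 and Krt32 by 4.26 and 3.43. Near-identical keratins share reads, so the split between them is uncertain.

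The keratin-associated proteins form the matrix around hair keratin filaments. Of 58 such genes 43 passed the filter on low counts, and since a gene near 0 in controls could pass only through sham skin, the count and median describe those 43 alone. Of these, 34 fell and none rose, and DESeq2's Wald test called 14 lower. Their median log2 fold change was -5.99. The sum over all 58 was 6.93, 5.16, 6.46 and 176 CPM in week 3 control skin against 124, 3637 and 3380 CPM in sham skin, and here control replicate 4 was above sham replicate 1. The largest decreases that pass the naming rule were in Krtap19-2 (-7.84), Krtap6-2 (-7.57), Krtap1-5 (-6.87), Krtap28-10 (-6.58), Krtap22-2 (-6.54) and Krtap21-1 (-6.47). In these genes 3 of the 4 controls held 3 counts or fewer (2 for Krtap1-5), so sizes and order rest largely on control replicate 4. Without it the controls held too little for a fold change. With single libraries left out, the weakest values were -5.61, -7.11, -6.42, -5.95, -5.83 and -5.82, in that order. Krtap19-2 had 0, 0.0410, 0 and 1.43 CPM against 6.23, 26.4 and 189 CPM. Beside Krtap28-10 on chromosome 1, between 82942559 and 83059378, lie A030003K21Rik, Gm47955 and A030005K14Rik, which fell by 6.94, 6.90 and 6.58. Capn8, a calpain protease and the named decrease outside these families, had 0, 0, 0 and 0.628 CPM against 1.68, 26.5 and 38.9 CPM (-7.34, SE 1.33, edgeR adjusted p = 0.0156). Its fold change rests on control replicate 4, without which all controls were at 0. With single libraries left out, its weakest value was -6.65.

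Of 9 genes of the inner root sheath, which moulds the growing hair, 4 fell, and the median log2 fold change was -5.57. Krt72 had 0, 0, 0 and 14.6 CPM against 16.8, 1122 and 734 CPM (-7.50, SE 1.99, edgeR adjusted p = 0.0446), and Krt26, Krt28 and Krt74 fell by 7.04, 6.36 and 5.41. Without week 3 control replicate 4 all controls were at 0 for Krt72, so no fold change is given there. Its log2 fold change was -6.78 without sham replicate 2, and its call was lost without sham replicates 2 or 3 or week 3 control replicates 1, 2 or 3 (edgeR adjusted p of 0.086 to 0.0986). Krt71 had 0, 0, 1.12 and 346 CPM against 500, 4968 and 5148 CPM. Its log2 fold change of -5.37 (SE 2.34) was not called (edgeR adjusted p = 0.165), although the groups did not overlap. Without week 3 control replicate 4 Krt71 was called (edgeR adjusted p = 0.0105), but leaving out the highest control widens the gap by that choice. The controls left were at 0, 0 and 1.12 CPM, so no fold change is given there.

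How many hair genes were called depended on single libraries as well as on the test. Leaving out week 3 control replicate 4 gave 10 hair shaft keratins, 38 keratin-associated genes and 9 inner root sheath genes lower, and leaving out sham replicate 1 gave 10, 41 and 7. With both left out the counts were 11, 43 and 9. Both were picked for their hair keratin level, which makes the hair genes of the remaining libraries lie further apart by that choice, so the counts without them are a description and support nothing. The 3 remaining controls held 5.16 to 6.93 CPM over all 58 keratin-associated proteins, too little for a fold change. Leaving out sham replicate 2 gave 3, 2 and 0, and sham replicate 3 gave 1, 1 and 0. Without week 3 control replicates 1, 2 and 3 the counts were 2, 3 and 2 of the shaft keratins, 4, 1 and 1 of the associated genes, and 0 each of the root sheath genes, of which 7 had an unadjusted p under 0.05 in each of these 5 edgeR fits. Of the 12 named decreases, A030003K21Rik was called with each single library left out, Capn8 was lost without sham replicate 3 (edgeR adjusted p = 0.0506), and each of the other 10 was lost without 3 to 5 of the libraries (always among sham replicates 2 and 3 and week 3 control replicates 1 to 3).

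Upstream sequence of 3 keratin genes that fell is shown because their levels moved together and a TATA box stands at a like distance from each start. The 250 bases before the RefSeq start are given as above, all on the minus strand: Krt28 at chr11:99374904-99375153, Krt31 at chr11:100050552-100050801 and Krt34 at chr11:100041555-100041804. Capitals mark TATAAA, searched with its reverse complement TTTATA.
Krt28: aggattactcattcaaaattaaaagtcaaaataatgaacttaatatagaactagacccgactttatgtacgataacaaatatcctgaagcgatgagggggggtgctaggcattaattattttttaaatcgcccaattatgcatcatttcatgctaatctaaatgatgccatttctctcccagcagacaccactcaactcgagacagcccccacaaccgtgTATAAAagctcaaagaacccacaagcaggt
Krt31: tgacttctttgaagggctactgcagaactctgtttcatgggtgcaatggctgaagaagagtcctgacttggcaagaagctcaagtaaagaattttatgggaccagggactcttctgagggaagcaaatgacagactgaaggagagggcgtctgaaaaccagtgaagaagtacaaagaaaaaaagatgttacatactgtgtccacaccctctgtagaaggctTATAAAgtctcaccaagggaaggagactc
Krt34: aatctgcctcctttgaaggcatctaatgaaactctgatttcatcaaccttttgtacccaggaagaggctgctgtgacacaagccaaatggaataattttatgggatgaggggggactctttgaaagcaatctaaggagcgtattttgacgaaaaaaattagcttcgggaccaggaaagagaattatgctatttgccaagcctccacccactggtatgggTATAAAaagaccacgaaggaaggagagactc
The match begins 30, 29 and 31 bases upstream of the start. TATAAA or its complement was in 5 of 7 hair shaft keratin promoters with an entry, 7 of 8 inner root sheath promoters and 41 of 51 keratin-associated promoters, against 12.4% of all 32851. The motif was chosen with the expression values known.

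Of 20 listed regulators of hair growth, 12 fell and 1 rose, and the median log2 fold change was -1.55. Lef1, which carries Wnt signals in the hair matrix, had 10.1, 6.72, 11.9 and 30.4 CPM against 50.1, 54.6 and 204 CPM and fell by 2.83 (edgeR adjusted p = 0.0273, and 0.089, 0.0671, 0.0661 and 0.0738 without sham replicate 3 or week 3 control replicates 1, 2 and 3). Dlx3, Hoxc13 and Msx2, transcription factors of the differentiating shaft, fell by 2.95, 2.92 and 2.79. Shh, the growth signal of the matrix, fell by 2.64 and its receptor gene Ptch1 by 1.56. Dsg4 (-5.16), Fgf5 (-3.70), Corin (-3.58), Foxn1 (-2.10), Bmp4 (-1.08) and Axin2 (-0.92) were the others. The riser was Wnt10a, at 20.1, 26.8, 26.0 and 27.2 CPM against 9.85, 9.06 and 14.2 CPM (1.17, edgeR adjusted p = 0.0154, and 0.0506 without sham replicate 2). Without sham replicates 2 and 3 the count lower was 7 and 3, and without week 3 control replicates 1, 2 and 3 it was 6, 6 and 4.

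Of 14 follicle stem and progenitor genes, 6 fell and none rose (median -0.58). These were Lgr5 (-2.08), Krt75 (-1.82), Foxc1 (-1.43), Lhx2 (-1.41), Gas1 (-1.31) and Lrig1 (-1.09). Lgr5, a marker of cycling stem cells of the lower follicle, had 6.08, 6.35, 8.88 and 12.3 CPM against 20.2, 61.3 and 24.6 CPM, with no overlap. The count was 2 without sham replicate 2, 4 without sham replicate 3, and 4, 2 and 1 without week 3 control replicates 1, 2 and 3. Of 11 pigment genes tested, Slc45a2 (-4.40) and Slc24a5 (-2.73) fell and none rose, with a median of -2.20. The median ran from -2.81 to -0.862 with single libraries left out. The count of melanocyte pigment genes called lower by edgeR was 3 without sham replicate 1, 2 without week 3 control replicate 4 and 0 without any one of the other 5 libraries, where 3 to 10 had an unadjusted p under 0.05. Trpm1 and Tyrp1, with -2.98 and -2.85, were not called, and sham replicate 3 was the highest library for both.

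Of 10 sebaceous gland genes 5 fell and none rose (median -0.92). Elovl3, which lengthens fatty acids for sebum, had 5.40, 3.15, 3.25 and 2.91 CPM against 8.83, 11.6 and 13.3 CPM, and fell by 1.62 (edgeR adjusted p = 0.0124). Mc5r, Far2, Fa2h and Soat1 fell by 1.25, 1.14, 0.94 and 0.90. The counts were 3, 2 and 4 without sham replicates 1, 2 and 3, and 2 without any one of the controls.

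Of 28 proliferation genes, 14 fell and none rose, and the median log2 fold change was -1.22. Mki67, a marker of dividing cells, had 45.6, 93.0, 69.6 and 136 CPM in week 3 control skin and 216, 175 and 344 CPM in sham skin, and fell by 1.52 (SE 0.36, edgeR adjusted p = 0.0322). All controls were below all sham libraries, and control replicate 4 was the nearest. Mitotic genes had the largest decreases, Plk1 and Cdc20 at -1.86 each and Ccnb1 at -1.83. Pcna, a clamp for DNA replication, was not called (log2 fold change 0.40, edgeR adjusted p = 0.134), and Mcm7 was the licensing gene that fell (-0.83). No gene was called lower by edgeR without sham replicate 3 (15 at an unadjusted p under 0.05), 7 were without sham replicate 2 and 9 without sham replicate 1. Without week 3 control replicates 1, 2 and 3 the counts were 6, 3 and 1. Mki67 was not called without sham replicate 2 or 3 or week 3 control replicate 1, 2 or 3 (edgeR adjusted p of 0.0518 to 0.11).

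Hox genes encode transcription factors that keep the address of a cell along the body. Of 39, 30 passed the filter, 9 fell and none rose (median -0.59). Hoxb3, Hoxb4, Hoxb5, Hoxb6, Hoxb7 and Hoxb8, neighbours in 1 cluster, fell by between 1.17 and 1.70. Hoxb7 had 5.18, 3.65, 4.65 and 5.94 CPM against 12.2, 11.9 and 12.7 CPM (-1.35, SE 0.21, edgeR adjusted p = 0.0101). Hoxb8 had 6.62, 7.91, 13.1 and 20.6 CPM against 36.8, 35.3 and 41.6 CPM (-1.67, SE 0.36, edgeR adjusted p = 0.0236, and 0.0579 to 0.0765 without sham replicate 2 or 3 or week 3 control replicate 2 or 3). Neither overlapped between groups. Hoxa3 and Hoxa6 fell by 1.33 and 1.5, and Hoxc13, which also regulates hair keratins, by 2.92. The number called was 6 to 9 when a single library was left out, with 6 without sham replicate 3. Over the tested Hox genes the mean log2(CPM + 1) was 3.60 ± 0.05 (SD, n = 3) in sham skin and 3.00 ± 0.12 (SD, n = 4) in week 3 controls, and 2.95 ± 0.25, 2.85 ± 0.28 and 3.60 ± 0.18 (SD, n = 4 each) in control weeks 1, 2 and 4. The body site of the control biopsies is not given, so site and treatment cannot be told apart here. Of 15 Wnt ligands tested, Wnt10a and Wnt7b (0.93) rose, and Wnt5a, at 29.8 to 37.1 CPM against 67.9 to 105 CPM, fell by 1.49 (edgeR adjusted p = 0.00399).

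**Figure D4:**
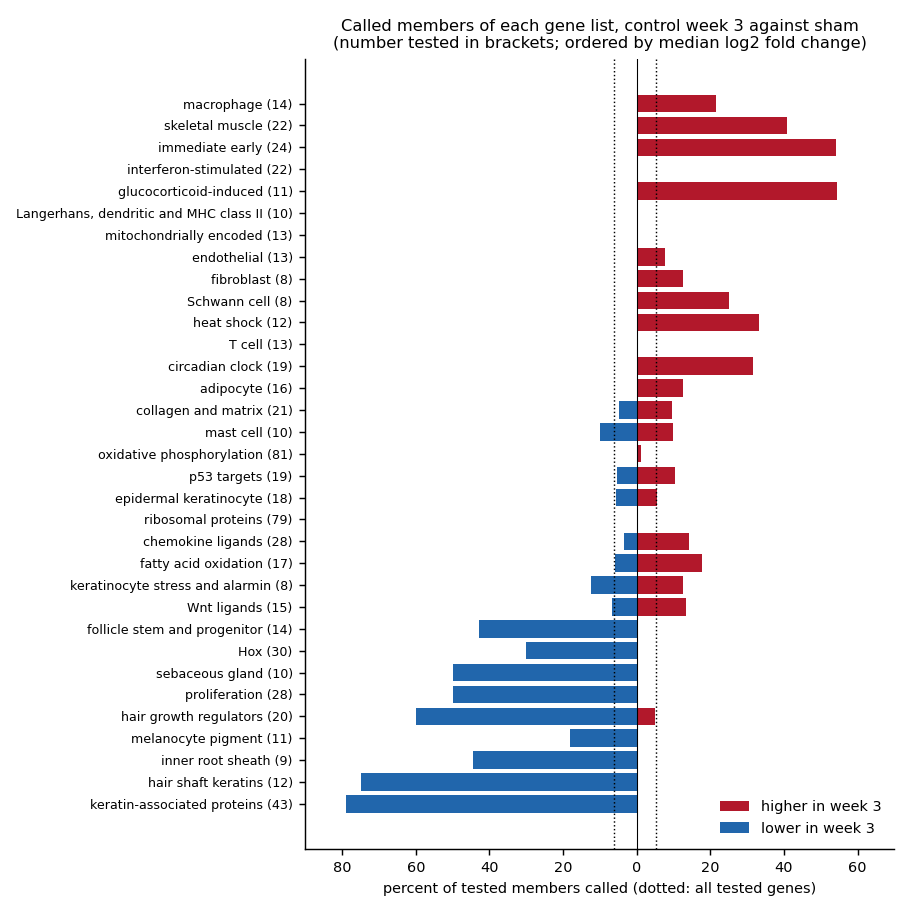
Percent of the tested members of each list described here that rose (red, right) or fell (blue, left), for lists with at least 8 tested members, whose number is in brackets. Dotted lines give the shares over all tested genes, 5.18% higher and 6.19% lower, and the lists are ordered by median log2 fold change from hair genes at the bottom to macrophage genes at the top.

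Mouse skin carries a thin muscle layer, the panniculus carnosus. Of 22 skeletal muscle genes, 9 rose, 13 were not called and none fell, with a median log2 fold change of 1.19. Myh4, the fast myosin heavy chain, had 13850, 17200, 8078 and 15380 CPM in week 3 control skin against 6327, 3350 and 4131 CPM in sham skin (1.55, SE 0.33, edgeR adjusted p = 0.0231). Myh2 (1.70), Mybpc2 (1.47), Actn3 (1.37), Mylpf (1.35), Des (1.28), Ckm (1.24), Tnni2 (1.21) and Myoz1 (1.17) were the others. The summed level of all 22 genes ran from 62070 to 112700 CPM in controls and from 19940 to 62780 CPM in sham skin. Sham replicate 2 was the lowest. Myh4 was not called without sham replicate 2 or 3 or week 3 control replicate 1 or 2 (edgeR adjusted p of 0.0537 to 0.0795). No muscle gene was called by edgeR without sham replicate 2 or sham replicate 3 (17 at an unadjusted p under 0.05 in each), 18 were without sham replicate 1, and 1, 1, 6 and 3 were without week 3 control replicates 1 to 4. With total-count scaling 6 rose, and DESeq2 called 19 higher.

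Of 17 fatty acid oxidation genes 3 rose, Ucp3 (1.31), Cpt1b (1.25) and Pdk4 (1.46), and 1 fell, Acot1 (-1.46), with a median of 0.01. Pdk4 lost its call without any one library, and Cpt1b without any one library other than sham replicate 1 (edgeR adjusted p of 0.0605 to 0.116). Of 81 oxidative phosphorylation genes 1 rose, Cox6a2 (1.58), and none fell. Its call did not hold without any one library other than sham replicate 1 (edgeR adjusted p of 0.0537 to 0.142). The part of the muscle level in these values was not tested. Without any one library, 1 or 2 of the fatty acid oxidation genes rose, with 2 without sham replicate 1. Of 16 adipocyte genes, Car3 (1.33) and Plin4 (0.64) rose and none fell. Plin4 lost its call without any one library other than sham replicate 1, and Car3 without sham replicates 2 or 3 or control replicates 2 or 4. Without sham replicate 2 edgeR called 0 adipocyte genes, with 7 higher at an unadjusted p under 0.05 (adjusted p of 0.0817 for Car3 and 0.0899 for Plin4). Adipoq, the adipocyte hormone, was at 38.8 ± 16.0 CPM (SD, n = 3) in sham skin and 40.5 ± 7.58 CPM (SD, n = 4) in controls, with a log2 fold change of 0.05 (SE 0.26, edgeR adjusted p = 0.921). Its sign changed under 5 of the alternative settings, total-count scaling among them.

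Myeloid genes varied between the controls. Of 14 macrophage genes 3 rose and none fell, with a median log2 fold change of 1.49. DESeq2 called 12 of the 14 higher. Cd163, a scavenger receptor, had 154, 269, 315 and 132 CPM against 102, 95.8 and 68.1 CPM (1.28, edgeR adjusted p = 0.0372), a call lost without sham replicate 2 or 3 or control replicate 2 or 3 (0.0757 to 0.123), and Cd14 and Itgam rose by 1.89 and 1.68. The summed level of the 14 genes was 587, 1557, 1403 and 779 CPM in week 3 control replicates 1 to 4 and 604, 396 and 311 CPM in sham replicates 1 to 3. Replicates 2 and 3 were high and replicate 1 lay within the sham range. Without control replicate 1, 7 were called by edgeR, without control replicates 2 and 3 none were (9 and 10 at an unadjusted p under 0.05), and 2 were without control replicate 4. Without sham replicate 1, 5 were called, and none without sham replicates 2 or 3 (7 each at an unadjusted p under 0.05).

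Of 28 chemokine genes tested, Ccl6 (2.16), Ccl7 and Ccl9 (1.79 each) and Cxcl16 (0.68) rose and Ccl25 (-0.94) fell. Ccl6 had 63.7, 273, 189 and 122 CPM against 56.3, 18.6 and 32.6 CPM, again highest in control replicates 2 and 3, and its call was lost without sham replicates 2 or 3 or control replicates 2, 3 or 4 (edgeR adjusted p of 0.0502 to 0.115). None rose without sham replicate 3, 3 did without sham replicate 2, and 2, 1, 2 and 3 did without week 3 control replicates 1 to 4. Il1b, an inflammatory cytokine, had 8.78, 2.13, 6.18 and 7.37 CPM against 0.751, 0.997 and 0.258 CPM and rose by 3.15 (edgeR adjusted p = 0.0171, and 0.0517 without sham replicate 3). S100a8, an alarmin gene of neutrophils, was at 0.0410 to 0.540 CPM in controls and 0.207 to 0.442 CPM in sham skin, under the filter. By edgeR, none was called of the 3 neutrophil genes that could be tested (of 10), of 13 T cell genes, of 3 B and plasma cell genes or of 10 genes of Langerhans and dendritic cells and MHC class II. At an unadjusted p under 0.05 there were 1, 1, 0 and 4 of them, and DESeq2 called 1, 0, 0 and 4, all higher in controls.

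The listed interferon-stimulated genes gave no call either, 0 of 22 by edgeR (0 at an unadjusted p under 0.05) and 0 by DESeq2, although their median log2 fold change was 1.15. Ifi202b and the related genes given under other observations are not on this list. Ifit3, an antiviral effector, had 5.40, 242, 54.9 and 34.1 CPM in controls against 51.6, 8.02 and 33.1 CPM in sham skin (1.44, edgeR adjusted p = 0.407). Control replicate 2 was the highest and control replicate 1 the lowest of all 7 libraries. The mean log2(CPM + 1) over the list ran from 2.65 to 5.45 in controls, a span that held all 3 sham libraries (2.77 to 3.94).

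Of 21 collagen and matrix genes, Thbs2 (1.20) and Lox (1.09) rose (9.52%) and Col12a1 (-1.41) fell (4.76%). The shares over all tested genes were 5.18% higher and 6.19% lower. Without any one library at most 1 gene of that list was called higher and at most 2 lower. Thbs2 lost its call without sham replicate 2 or any one control (edgeR adjusted p of 0.0515 to 0.0694), Lox without any one library other than sham replicate 2 (0.0694 to 0.106), and Col12a1 without sham replicates 2 or 3 or control replicates 1, 2 or 3 (0.0812 to 0.0965). Col1a1, the main collagen chain, had 366, 3501, 2132 and 4864 CPM against 2701, 4401 and 1940 CPM (-0.16, SE 0.67, edgeR adjusted p = 0.90), and control replicate 1 was the lowest. Of 18 epidermal genes Krtdap (0.70) rose (5.56%) and Casp14 (-0.56) fell (5.56%), near the shares over all genes. Each lost its call without any one library other than sham replicate 1 (edgeR adjusted p of 0.0639 to 0.113 for Krtdap and 0.0549 to 0.111 for Casp14), and with total-count scaling no gene of the list was called higher. Krt6a, a keratin of wounded and follicular epithelium, was at 388 ± 64.7 CPM (SD, n = 4) against 425 ± 403 CPM (SD, n = 3) and was not called (-0.14, SE 0.53, edgeR adjusted p = 0.888). Without sham replicate 2 its log2 fold change was 0.97. Cdkn1a, the cell cycle inhibitor induced by p53, had 585, 504, 509 and 719 CPM against 317, 478 and 357 CPM. The groups did not overlap, and the log2 fold change of 0.58 (SE 0.19) was not called by edgeR (adjusted p = 0.0761). Of 19 p53 targets tested, Phlda3 (1.05) and Ccng1 (1.00) rose (10.5%) and Sesn1 (-1.09) fell (5.26%). Ccng1 lost its call without any one library other than sham replicate 1 (edgeR adjusted p of 0.0515 to 0.123).

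For markers of other cells that a biopsy can hold, the shares over all genes were 5.18% higher and 6.19% lower. Of 8 fibroblast genes 1 rose, Pdgfra by 0.66, and the lowest log2 fold change was -0.20. Of 13 endothelial genes 1 rose (7.69%), Flt1 by 0.82, with the lowest at -0.11. Of 8 Schwann cell genes 2 rose, Pmp22 by 1.27 and Mbp by 1.00, with the lowest at -0.14. None of these 3 lists had a gene that fell. Of 10 mast cell genes tested 1 rose, Hdc by 1.31, 1 fell, Kit by 1.60, which melanocytes share, and 8 were not called. Of 6 erythrocyte genes tested 1 fell and none rose. This was Slc4a1, which fell by 5.30, from 1.02, 33.4 and 12.0 CPM in sham skin to 0.186 to 0.628 CPM, a call lost without week 3 control replicates 2 or 3 (edgeR adjusted p of 0.0513 and 0.0515). All 7 listed erythrocyte genes summed to 29.5 to 68.3 CPM in controls and 77.7 to 119 CPM in sham skin. The globin genes Hbb-bs (-0.67) and Hba-a2 (-0.50) overlapped between groups and were not called (edgeR adjusted p of 0.287 and 0.227). Both were highest in sham replicate 1, the sham library with the least Slc4a1. Of 5 mammary epithelium genes tested 1 fell, Elf5 by 2.23, and none rose. Without sham replicate 2, edgeR called none of Pdgfra, Flt1, Pmp22, Mbp, Hdc, Kit or Elf5 (adjusted p of 0.055 to 0.0709), with 3 fibroblast, 6 endothelial and 2 Schwann cell genes higher at an unadjusted p under 0.05. Pdgfra, Flt1, Mbp, Hdc, Kit and Elf5 were also not called without sham replicate 3, nor Pdgfra, Flt1, Pmp22, Kit and Elf5 without week 3 control replicate 2. Flt1, Kit and Elf5 lost their calls without control replicates 1 or 3 as well, Pdgfra without control replicate 3, and Flt1 and Elf5 without control replicate 4. By edgeR none of 79 ribosomal protein genes and none of the 13 mitochondrially encoded genes were called, with 4 and 7 at an unadjusted p under 0.05, and DESeq2 called 3 and 6, all higher in controls. In other lists where the tests differed by over 1.5 times, DESeq2 called 8 chemokine genes higher (4 by edgeR), 4 epidermal genes (1), 4 endothelial genes (1), 3 fibroblast genes (1), 4 oxidative phosphorylation genes (1) and 4 p53 targets (2). Also higher by DESeq2 were 2 hair growth regulators (1 by edgeR) and 1 follicle stem and progenitor gene (0). It called 5 pigment genes lower (2 by edgeR), 4 Wnt ligands (1), 3 fatty acid oxidation genes (1), 2 keratinocyte stress and alarmin genes (1) and 1 clock gene (0).

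Week 3 controls were also compared with the mean of control weeks 1, 2 and 4, over the 16 control libraries and without sham skin. Of 18192 genes, 1734 were called (9.53%), 1110 higher (6.1%) and 624 lower (3.43%) in week 3, and 4594 (25.3%) had an unadjusted p under 0.05. With total-count scaling, 695 were higher and 723 lower. The comparison shares the week 3 libraries with the first. Of the 1968 genes called against sham and tested in both, 593 were called here too (30.1% of those and 34.3% of the 1731 called here), 592 of them in the same direction. Without week 3 control replicate 2, 766 genes were called, and without replicates 3 and 4, 1122 and 1140.

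Some early response genes differed between control weeks. Fosl1 differed from the other control weeks by 2.59 (SE 0.44, edgeR adjusted p = 0.00295). Its range was 11.7 to 159 CPM in control week 1 and 22.9 to 108 CPM in control week 2, and in control week 4 it was 1.31 to 3.94 CPM, near the sham range. Radiated skin of week 3 had 18.1 to 69.6 CPM, under every week 3 control. Bcl3 (1.84, edgeR adjusted p = 0.00369), Nr4a3 (1.43, edgeR adjusted p = 0.00905), Epgn (1.10, edgeR adjusted p = 0.0289) and Ccr1 (4.07, edgeR adjusted p = 0.00113) were higher as well, and Epgn was not called without week 3 control replicate 1 or 2 (edgeR adjusted p of 0.082 and 0.15). Ccr1 differed by 2.37 without week 3 control replicate 4. Ptx3 (1.60) was not called against the other weeks. Of all 24 immediate early genes 4 were higher, none lower, and the median was -0.20. Without single libraries 2 to 4 were higher.

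No hair fibre gene was called between control weeks. Of 12 hair shaft keratins, 9 inner root sheath genes and 16 keratin-associated genes tested here, edgeR and DESeq2 each called 0, with 1, 0 and 0 at an unadjusted p under 0.05 in edgeR. The mean log2(CPM + 1) over the hair shaft keratins was 6.16 ± 1.85 (SD, n = 3) in sham skin, and 2.42 ± 2.45, 1.13 ± 1.04, 1.19 ± 1.35 and 0.56 ± 0.06 (SD, n = 4 each) in control weeks 1, 2, 3 and 4. Control week 1 was the widest, with a highest library of 5.63. The proliferation and muscle lists had no edgeR call between weeks either, with 1 gene each at an unadjusted p under 0.05, and DESeq2 called 0 and 1.

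Of 22 interferon-stimulated genes 16 were higher in week 3 controls than in the other control weeks (median 1.61), and of 14 macrophage genes 8 were (median 1.18), with none lower. These counts were 1 and 4 without week 3 control replicate 2, and without replicate 3 they were 13 and 4. Ifit3 differed by 2.21 (edgeR adjusted p = 0.023), and by 0.78 without week 3 control replicate 2 (edgeR adjusted p = 0.423). Lyve1, of tissue macrophages and lymphatic vessels, differed by 1.59 (edgeR adjusted p = 0.00148). Summed macrophage level reached 1557 CPM in week 3 controls and at most 1069, 739 and 527 CPM in control weeks 1, 2 and 4, against 1403 to 3749 CPM in radiated skin of week 3. Of 16 adipocyte genes 6 were lower and none higher, and Adipoq fell by 1.33 (edgeR adjusted p = 0.0113), a call lost without week 3 control replicate 2 (-1.24, edgeR adjusted p = 0.0517). Of 19 clock genes 7 were lower and 2 higher, led by Dbp (-1.90) and Tef (-1.20). Leaving out week 3 control replicate 2 left 1 adipocyte gene and 4 clock genes lower, and without replicate 1 or 3 the adipocyte count was 4.

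**Figure D5:**
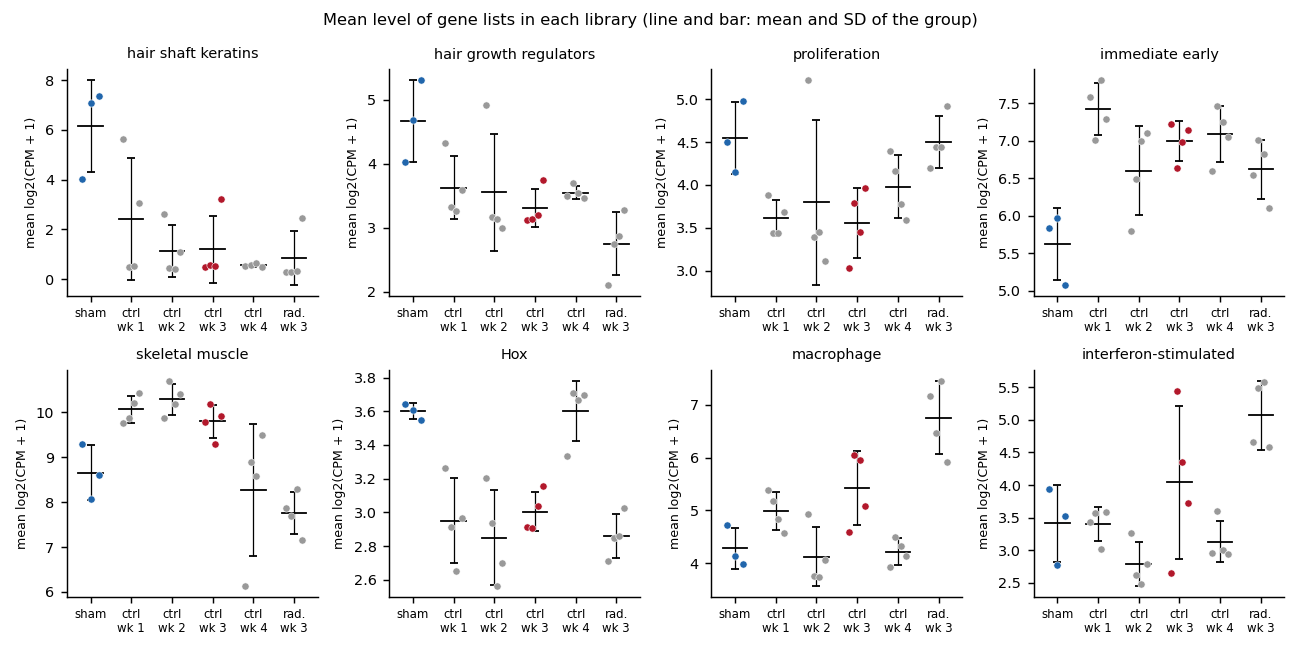
Mean log2(CPM + 1) over the tested genes of 8 lists in each library of sham skin (blue), control weeks 1, 2 and 4 (grey), control week 3 (red) and radiated week 3 (grey), with the mean and SD of each group. The sham mean is the highest of the 6 groups in hair shaft keratins and the lowest in immediate early genes, and 1 week 3 control library stands above the other 3 in hair shaft keratins.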

How the data were processed

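RNA of whole skin was sequenced in 35 libraries. The deposited table holds estimated counts for each gene, made with kallisto 0.46.2 after Trim Galore 0.6.7 with build mm10, per the submitters' processing notes. The transcript release and the step from transcripts to genes are not given in the sources used here. The authors' protocol, per the labels, also names DESeq2, RNeasy extraction and RNAlater. About 31% of the values of a sham library were not whole, and all were rounded.

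Genes were filtered with filterByExpr, scaled with TMM and tested with edgeR 4.0.16 (quasi-likelihood F test, R 4.3.3), with Benjamini-Hochberg adjustment over all tested genes and a threshold of 0.05. The 7 libraries were fitted on their own, and the 16 control libraries in a second fit. SE is the log2 fold change divided by the square root of F. Among 595 library pairs 0 were identical, and the 9 pairs within the groups differed by more than sampling noise (lowest reduced chi-square 33.8). On simulated counts (17643 genes) the first fit recovered 82% of changes of 2 on the log2 scale and 96% of changes of 3, and 5.85% of its calls were unchanged genes. Those counts were drawn independently for each gene, with 200 genes changed and no outlying library. The real libraries differ in this, so these shares need not hold for them.

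Named genes are the 12 largest increases and decreases past the threshold with a mean of at least 5 CPM and no overlap of groups, in each of 38 lists the called member with the largest rise and fall (at least 1 CPM) and the 2 highest, and 7 set genes (Cdkn1a, S100a8, Krt6a, Krt71, Col1a1, Adipoq, Mki67). Some genes and a list that follow from this rule are not reported here. Other list members were named after their values were seen. Members and lists were chosen with earlier results of these data known. Positions are from GENCODE M21, and promoters from RefSeq. The samples come from separate mice as far as 19 mice for 35 samples implies. No batch is labelled. A floor reflects counting error alone, since no molecular identifiers marked the original molecules. Alternatives were other scalings, no filter, a robust prior, DESeq2 1.42.0, wider fits, a replicate block and leaving out each library.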

Additional observations from a re-analysis of the deposited data

Results flagged for a closer look

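Week 3 control replicate 4 was the highest of its group by a gap above the 95% limit of Dixon's test in 17 of the 68 groups of 4 values examined. Chance flags about 1 in 20 groups, and the genes move together, so these are not independent. Among hair genes it held 346 CPM of Krt71, 14.6 of Krt72, 18.0 of Krt83, 8.85 of Krtap1-5, 1.71 of Krtap28-10, 1.6 of Krtap21-1, 1.43 of Krtap19-2, 1.43 of Krtap22-2 and 1.31 of Krtap6-2. Beside them were Capn8 at 0.628 CPM, A030005K14Rik at 0.913 CPM and Gm47955 at 0.856 CPM. The mean log2(CPM + 1) of the lists was high there too, at 5.35 for the inner root sheath, 3.21 for hair shaft keratins, 1.81 for keratin-associated proteins and 3.74 for hair growth regulators. The same library held 68.0 CPM of the chemokine receptor gene Ccr1.

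Of the largest changes and the set genes tested against sham, 23 were also tested between control weeks, and named list members were not counted. Of these 23, 7 differed in week 3 from the mean of weeks 1, 2 and 4 by edgeR. The log2 differences were 4.07 for Ccr1 (2.37 without week 3 control replicate 4), 2.59 for Fosl1, 1.84 for Bcl3, 1.43 for Nr4a3, 1.1 for Epgn, 0.88 for Krt6a and -1.33 for Adipoq.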

How the results depend on the processing

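Of 400 values (25 called genes under 16 alternatives each), 325 kept direction and call, 75 kept direction only and 0 reversed. These genes are the 12 largest changes each way and Mki67. The 12 each way were chosen for large changes and no overlap, so a reversal was unlikely from the start. Named list members outside them were not counted. The count of 2036 genes became 477 with a replicate block, 3594 with DESeq2's Wald test and 3430 in a fit of the 19 control and sham libraries. It ran from 629 to 2438 with single libraries left out. The 1734 genes against other control weeks ran from 766 to 2020. Total-count scaling split the calls into 571 higher and 1951 lower against sham, and 695 and 723 against other weeks. Control and sham mice differ. Deviations of those with the same title number correlated by -0.0182, -0.148 and 0.0245, nor did every library correlate best with its own number. By the numbers in the descriptions they correlated by 0.241, -0.0473 and 0.116. Neither set pairs them. Under the block 8 immediate early, 2 proliferation, 1 macrophage and 0 muscle genes were called. Krt6a became 0.42 with the block. Adipoq became -0.091 (total count) and -0.071 without control 4 and sham 1, a pair chosen after seeing the data. With single libraries left out, Krt6a ran from -0.572 to 0.969, Col1a1 from -0.596 to 0.214 and Adipoq from -0.168 to 0.421. The cause was not tested in these cases. Genes near 0.123 to 0.171 CPM rest on 3 counts or fewer.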

Other observations

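Genes outside the lists are given here as values, chosen after they were seen. Of genes related to Ifi202b, Ifi207 rose by 2.19, Ifi205 by 2.01, Ifi211 by 1.97 and Ifi204 by 1.73 (edgeR adjusted p of 0.0145, 0.0131, 0.0213 and 0.0355). Ifi205 was at 126, 170, 118 and 102 CPM in week 3 control skin and at 51.3, 25.1 and 18.6 CPM in sham skin. Some genes with small adjusted p-values after Fosl1 had little spread within groups. Aqp3, the water and glycerol channel of basal keratinocytes, was at 432, 467, 453 and 470 CPM against 117, 130 and 111 CPM (1.92, edgeR adjusted p = 0.000421). Abl2, a tyrosine kinase, was at 402, 387, 385 and 404 CPM against 115, 99.1 and 92.5 CPM (1.94, edgeR adjusted p = 0.000421), and Tnfrsf12a, the receptor of TWEAK, rose by 2.08 (edgeR adjusted p = 0.000793).

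Padi1 and Padi3, which convert arginine to citrulline in root sheath and shaft proteins, fell by 5.76 and 5.70. S100a3 of the hair cuticle fell by 5.69, and the connexin genes Gjb2 and Gjb6 by 4.51 and 4.31 (edgeR adjusted p of 0.011 to 0.0415 over these 5 genes). In all 5 of these genes week 3 control replicate 4 was the highest control and sham replicate 1 the lowest sham library.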
